A study of Mus musculus with 4 samples.

Results

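The enzymes that write and erase methylation on lysine 4 of histone H3 (H3K4) were examined in mouse male germ cells treated with an inhibitor of serine metabolism. The group holds 10 genes chosen by symbol: the 6 methyltransferases Kmt2a, Kmt2b, Kmt2c, Kmt2d, Setd1a and Setd1b, the shared subunit Wdr5, and the 3 demethylases Kdm1a, Kdm5a and Kdm5b. All 10 were found, each as 1 gene, among the 36088 genes of the deposited table. The cells were wild-type male germ cells, sorted from fetal testes kept in culture, with day 14 in the sample titles. Cultures received either DMSO, the solvent, or CBR-5884, an inhibitor of serine metabolism that is known to act on Phgdh, the enzyme at the entry of the serine pathway. Each condition had 2 libraries, described by the submitters as biological replicates. The sources used here do not give strain, dose, the age of the fetuses or whether testes were pooled. Libraries are named below by condition and by the number 2 or 4 in their names in the table, because those numbers do not match the replicate numbers of the labels.

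H3K4 methylation marks active and poised regulatory DNA. The methyltransferases of the KMT2 family work in pairs of close relatives: Setd1a and Setd1b supply much of the trimethyl mark at active promoters, Kmt2a and Kmt2b (also called MLL1 and MLL2) act at developmental and CpG-rich promoters, and Kmt2c and Kmt2d lay down the monomethyl mark at enhancers. Each assembles on a core of Wdr5, Rbbp5, Ash2l and Dpy30, which it needs for full activity, and takes the methyl group from S-adenosylmethionine, whose methyl group can derive from serine through the folate pathway. Kdm1a (LSD1) removes mono- and dimethyl marks with FAD as cofactor, while Kdm5a and Kdm5b remove di- and trimethyl marks as oxygen- and 2-oxoglutarate-dependent enzymes. In male germ cells Kmt2b and Kdm1a are known for their part in spermatogonial differentiation, and Prdm9 for the H3K4 marks that place meiotic recombination.

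Promoter sequences from RefSeq (GRCm38.p6; 250 bases before and 50 bases after the start) were at hand for 7 of the 10 genes. A property these 7 promoters share, which played no part in choosing the genes, is a density of CG pairs (C followed by G) above the median of all promoters. The set of all promoters was not limited to genes expressed here. They held 17 (Kdm5b) to 56 (Kmt2c) CG pairs in 300 bases, with a median of 29, against a median of 7 over 32851 promoters of the same length. Of all promoters 31.4% held at least as many as Kdm5b and 0.195% at least as many as Kmt2c. The TATA box letters TATAAA, searched on both strands, occurred in 0 of the 7 and in 13.6% of all promoters. One member of each role is shown, for the 250 bases before the start, read 5′ to 3′ on the gene's strand, with every CG pair in capitals. The stretch of Kmt2d is chr15:98871206-98871455 (minus strand, 26 CG pairs), that of Kdm1a chr4:136602724-136602973 (minus strand, 21 CG pairs) and that of Wdr5 chr2:27514897-27515146 (plus strand, 12 CG pairs). No exon of GENCODE M21 lies inside any of these stretches.
Kmt2d: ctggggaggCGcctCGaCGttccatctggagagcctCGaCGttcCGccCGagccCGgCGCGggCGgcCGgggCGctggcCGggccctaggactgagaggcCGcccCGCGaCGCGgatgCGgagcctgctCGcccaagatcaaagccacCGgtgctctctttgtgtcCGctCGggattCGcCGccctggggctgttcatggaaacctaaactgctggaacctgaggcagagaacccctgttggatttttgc
Kdm1a: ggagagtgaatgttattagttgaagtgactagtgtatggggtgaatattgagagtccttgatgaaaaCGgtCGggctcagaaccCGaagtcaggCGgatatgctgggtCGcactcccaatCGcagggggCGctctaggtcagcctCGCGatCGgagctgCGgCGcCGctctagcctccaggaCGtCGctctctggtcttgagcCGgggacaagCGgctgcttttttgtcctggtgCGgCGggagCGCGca
Wdr5: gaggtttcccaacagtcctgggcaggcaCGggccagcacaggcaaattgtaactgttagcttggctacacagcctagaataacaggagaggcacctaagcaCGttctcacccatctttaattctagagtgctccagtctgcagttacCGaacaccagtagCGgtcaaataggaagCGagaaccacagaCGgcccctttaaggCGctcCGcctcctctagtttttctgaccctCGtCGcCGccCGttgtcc
No chromatin was measured here, so these sequences describe the genes and not their state in the cells.

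RNA of all 10 genes was present in all 4 libraries, and none changed with CBR-5884 at the threshold used. Levels are given as TPM, an abundance corrected for transcript length and scaled to a similar library total, so that levels can be compared between genes. The totals were 966761 (CBR-5884 library 4) to 1002976 (DMSO library 2). The test was limma on log2(TPM + 1). It covered the 14920 genes whose mean reached 1 TPM, and a gene was called at a Benjamini-Hochberg adjusted p under 0.05. Of the 10 members 0 were called, beside 0% of all genes tested, and 0 had an unadjusted p under 0.05, beside 3.66% of all genes. The smallest unadjusted limma p among the members was 0.151 (Kmt2d), and each member had an adjusted p of 0.998. Log2 fold changes ran from −0.09 (Kdm5a) to 0.28 (Kmt2d), with a median of 0.02, against −0.01 over all genes tested. With library totals made equal, these medians were 0.05 and 0.01. The 95% interval of every member lay inside a 2-fold change in either direction. The margin of these intervals was 0.17 to 0.51 on the log2 scale, with a median of 0.22, against 0.28 over all tested genes with a mean of 10 TPM or more. With 2 libraries a condition, estimated changes within these margins could not be told from 0 even before adjustment. The margins do not include the adjustment over 14920 genes, so larger changes could also go uncalled. The smallest adjusted limma p of any gene tested was 0.0965. By estimate, all 4 libraries were of similar depth, with 1.06 (DMSO library 2), 1.25 (CBR-5884 library 2) and 1.15 (CBR-5884 library 4) times the reads of DMSO library 4. The 9 germ cell markers summed to 2307 to 2457 TPM; Dazl, Ddx4, Mael and Tdrd1 were at 101 TPM or more in every library, and Dppa3 at 1.24 TPM or less. Of the 8 tested, 0 were called, and fold changes were above 0 for 6 and below 0 for 2. The groups did not overlap for 4, beside 31.3% of all genes tested. The difference from that share was not tested. Of these 4, Dazl (log2 fold change 0.01), Nanos2 (0.24) and Sycp3 (0.15) were higher with CBR-5884, and Stra8 was lower. Nanos2 was low, at 3.20 to 4.61 TPM. Sycp3 had 189 and 162 TPM with DMSO and 196 and 192 TPM with CBR-5884. Stra8, a marker of the response to retinoic acid, had 476 and 399 TPM with DMSO and 376 and 323 TPM with CBR-5884 (log2 fold change −0.32, limma unadjusted p = 0.0338, adjusted p = 0.998); its part in the members' values was not tested.

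**Figure D1:**
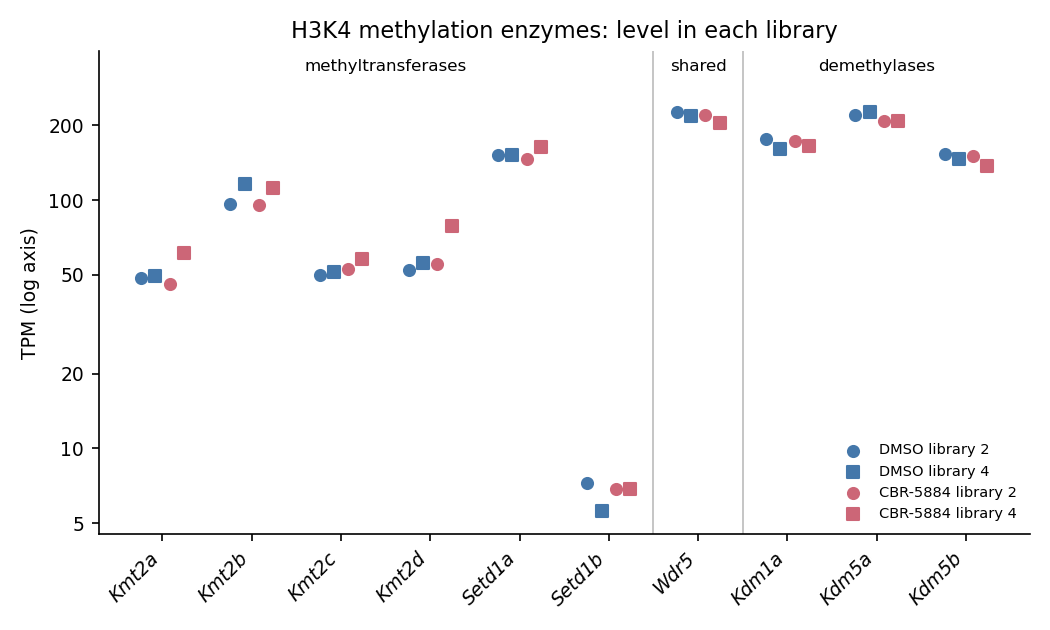
TPM of each of the 10 genes in each library, on a log axis; blue marks DMSO and red CBR-5884, circles the libraries numbered 2 and squares those numbered 4. Levels run from 5.58 TPM (Setd1b) to 227 TPM (Wdr5), and CBR-5884 library 4 is the highest of the 4 libraries for Kmt2a, Kmt2c, Kmt2d and Setd1a.

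Wdr5 (mean over the 4 libraries 217 TPM) and Kdm5a (216 TPM) stood highest, and their ranges overlapped. They were followed by Kdm1a (169 TPM), Setd1a (153 TPM) and Kdm5b (147 TPM), each overlapping its neighbour in this order, and none reaching the range of Kdm5a. Kmt2b (105 TPM) was separate from those above and below it. Kmt2d (60.4 TPM), Kmt2c (53.0 TPM) and Kmt2a (51.3 TPM) formed a group whose neighbours overlapped. Setd1b, at 6.62 TPM, was the lowest in every library, and 29.1% of the genes tested had a lower mean, against 94.6% for Wdr5. The close relatives Setd1a and Setd1b thus lay far apart, with Setd1a 20.9 and 27.3 times as high in the DMSO libraries and 21.5 and 23.9 times as high in the CBR-5884 libraries.

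Of the promoter methyltransferases, Setd1a (chromosome 7, 127776670 to 127800122, plus strand) had 151 and 152 TPM in DMSO libraries 2 and 4 and 147 and 163 TPM in CBR-5884 libraries 2 and 4. The CBR-5884 libraries lay on both sides of the DMSO libraries, and the log2 fold change was 0.03 (SE 0.08, 95% interval −0.18 to 0.23, or 0.886- to 1.17-fold). Its reads may be split with an overlapping predicted gene on the same strand, Gm49388, since 51.8% of the 31-base words of its transcripts occur in other genes of the table; Gm49388 itself had at most 3.004 TPM. Setd1b (chromosome 5, 123142193 to 123168629, plus strand) had 7.24 and 5.58 TPM with DMSO and 6.83 and 6.84 TPM with CBR-5884. Both CBR-5884 values fell between the DMSO values, and at this low level the interval was the widest of the 10 (log2 fold change 0.09, −0.42 to 0.59).

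Kmt2a (chromosome 9, 44803355 to 44881296, minus strand), the methyltransferase that maintains Hox gene expression, had 48.6 and 49.5 TPM with DMSO and 46.0 and 61.2 TPM with CBR-5884. Only CBR-5884 library 4 stood away from the others, while CBR-5884 library 2 was the lowest of the 4 (log2 fold change 0.11, SE 0.14, interval −0.24 to 0.46). Kmt2b (chromosome 7, 30568858 to 30588726, minus strand) had 96.6 and 116 TPM with DMSO and 95.8 and 112 TPM with CBR-5884. Here the libraries divided by number and not by condition, with both libraries numbered 4 above both numbered 2, and the log2 fold change was −0.03 (SE 0.13, interval −0.34 to 0.27). The summed level of the Sertoli cell markers (Sox9, Amh, Wt1, Gata4, Rhox5, Cldn11, Clu and Inha) divided the same libraries the other way. It was 282 and 239 TPM in the libraries numbered 2 of DMSO and CBR-5884, and 164 and 198 TPM in those numbered 4. Clu was the largest part of this sum, with 148 and 90.3 TPM with DMSO and 125 and 102 TPM with CBR-5884. Of the 8 markers 7 were detected, and Rhox5 was at 0 in every library. Gata4 divided by condition and not by number, with 11.2 and 11.7 TPM with DMSO and 9.61 and 8.97 TPM with CBR-5884. The part of these markers in the levels of Kmt2b was not tested.

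With all libraries the enhancer methyltransferases had the largest positive fold changes of the 10 genes, and neither was called. The order changed when DMSO library 2 or either CBR-5884 library was left out: Setd1b lay above both in the fits lacking DMSO library 2 (0.25) or CBR-5884 library 4 (0.09), and Kmt2a (0.31) lay above Kmt2c (0.19) without CBR-5884 library 2. Kmt2c (chromosome 5, 25271798 to 25498783, minus strand) had 49.95 and 51.3 TPM with DMSO and 52.8 and 57.8 TPM with CBR-5884. Both CBR-5884 libraries lay above both DMSO libraries (log2 fold change 0.12, SE 0.09, interval −0.11 to 0.35). Kmt2d (chromosome 15, 98831669 to 98871204, minus strand) had 52.2 and 56.0 TPM with DMSO and 55.1 and 78.3 TPM with CBR-5884. CBR-5884 library 2 fell between the DMSO libraries, and only library 4 lay above both (log2 fold change 0.28, SE 0.17, interval −0.13 to 0.69; limma unadjusted p = 0.151). Without CBR-5884 library 4 the log2 fold change of Kmt2d was 0.03, and without CBR-5884 library 2 it was 0.53 (limma unadjusted p = 0.00731, against an adjusted p above the threshold). In that fit Kmt2a too had an unadjusted limma p under 0.05, with a log2 fold change of 0.31.

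**Figure D2:**
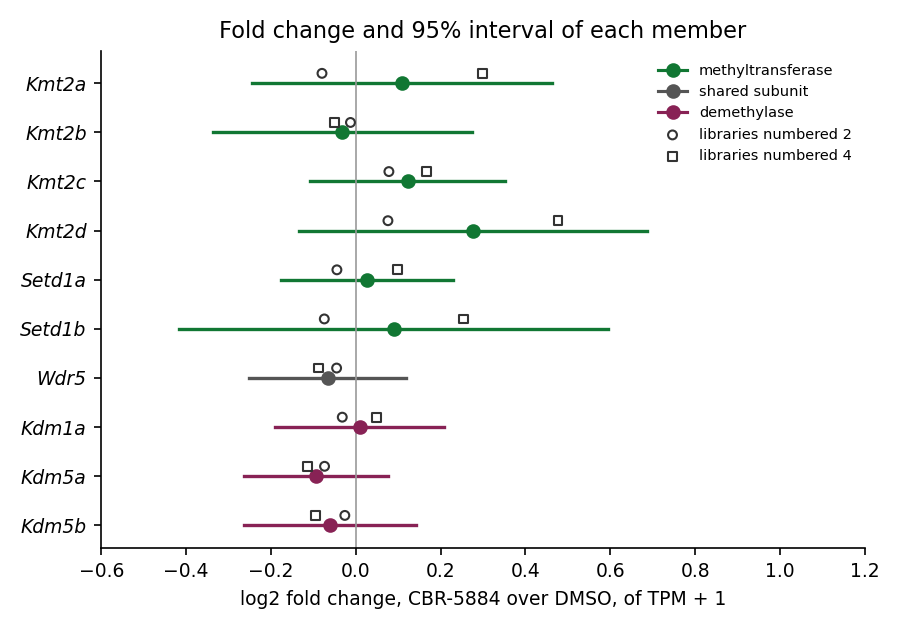
Log2 fold change of CBR-5884 over DMSO for each gene, on the log2(TPM + 1) scale: filled points and bars are the limma estimate and its 95% interval, and open symbols the difference between the libraries with the same number. Every interval includes 0, and for Kmt2a, Kmt2d and Setd1b the difference between the libraries numbered 4 (0.30, 0.48 and 0.25) is well above that between the libraries numbered 2 (−0.08, 0.08 and −0.07).

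Taken by role, 5 of the 6 methyltransferases had a positive fold change (median 0.10), beside 47.2% of all genes tested. CBR-5884 library 4 was the highest of the 4 libraries for 4 of the 6, beside 22.7% of all genes, and for 0 of the 3 demethylases. The summed level of the 6 methyltransferases was 406 and 431 TPM with DMSO and 403 and 479.9 TPM with CBR-5884. CBR-5884 library 2 thus had the lowest sum and CBR-5884 library 4 the highest. Without library 4 the median fold change of the methyltransferases was −0.01.

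The direction in CBR-5884 library 4 moved with transcript length across all genes. Over genes with a mean of at least 10 TPM, the level in this library relative to the mean of the other libraries had a median of −0.10 on the log2 scale for the 752 genes with a longest transcript of up to 1 kb, −0.02 for the 1833 genes of 3 to 4 kb and 0.06 for the 224 genes over 10 kb. Kmt2d (19.8 kb), Kmt2a (16.5 kb) and Kmt2c (15.0 kb) are among the last, at 0.52, 0.34 and 0.17, above the upper quartile of that class (0.15). Kdm5a, with a transcript of 10.9 kb, is in the same class and lay at −0.06. Of the 224 genes, 42.0% had their highest value in this library, against 13.96% of the shortest class. CBR-5884 library 2 is part of the mean used here, and against DMSO library 2 it moved the other way. The median of that difference was 0.0007 in the shortest class and −0.06 in the class over 10 kb. The median log2 fold change between the conditions was −0.03 and −0.02 in the same classes. With a smooth trend on transcript length removed from each library, the log2 fold change was 0.25 for Kmt2d, 0.10 for Kmt2a and 0.11 for Kmt2c, and 0 members were called.

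**Figure D3:**
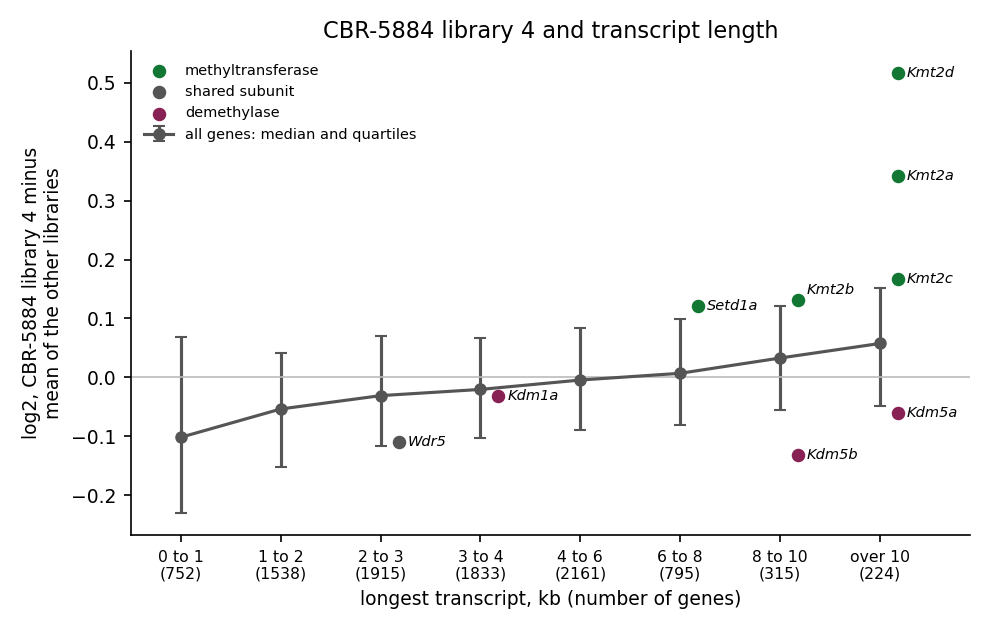
Level in CBR-5884 library 4 relative to the mean of the other 3 libraries (log2 of TPM + 1) by length of the longest transcript, for genes with a mean of at least 10 TPM: grey points and bars are the median and quartiles of all genes in each length class, and coloured points the members (Setd1b, below 10 TPM, is left out). The median climbs from −0.10 to 0.06 with length, and Kmt2d, at 0.52, lies farthest above its class.

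Wdr5 (chromosome 2, 27515157 to 27536535, plus strand), the scaffold that all 6 methyltransferases share, had 227 and 218 TPM with DMSO and 219.6 and 205 TPM with CBR-5884. The groups overlapped, and the log2 fold change was −0.07 (SE 0.08, interval −0.25 to 0.12, or 0.840- to 1.09-fold). Ash2l, which with Rbbp5 activates the catalytic domain, had 210.4 and 212 TPM with DMSO and 195 and 201 TPM with CBR-5884, groups that did not overlap (log2 fold change −0.09). Rbbp5 had 58.4 and 54.1 TPM against 55.4 and 63.2 TPM, and overlapped. Of the 4 core subunits 1 lay above 0 and 3 below 0 in fold change, and 0 were called.

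The demethylases were abundant and close between the conditions. Kdm1a (chromosome 4, 136550540 to 136602723, minus strand) had 176 and 160.2 TPM with DMSO and 172 and 166 TPM with CBR-5884. Both CBR-5884 values lay between the DMSO values, with a log2 fold change of 0.01 (SE 0.08, interval −0.19 to 0.21, or 0.876- to 1.16-fold). Kdm5a (chromosome 6, 120364124 to 120444574, plus strand) had 219.5 and 226 TPM with DMSO and 209 and 209 TPM with CBR-5884. Both CBR-5884 libraries lay below both DMSO libraries (log2 fold change −0.09, SE 0.07, interval −0.26 to 0.08). Kdm5b (chromosome 1, 134560171 to 134635285, plus strand) had 153 and 146 TPM with DMSO and 151 and 137 TPM with CBR-5884, and overlapped (log2 fold change −0.06, SE 0.08, interval −0.26 to 0.14). The annotation has exons of Ccdc77 on the opposite strand of Kdm5a, and of predicted genes opposite Kmt2a, Kmt2c and Setd1a; as the strand setting is not known, reads of such pairs may not be separable. Groups did not overlap for 2 of the 10 members, Kmt2c higher and Kdm5a lower, beside 31.3% of all genes tested. The summed level of the 3 demethylases was 549 and 532 TPM with DMSO and 532 and 511 TPM with CBR-5884. Divided by that of the methyltransferases, it was 1.35 and 1.23 with DMSO and 1.32 and 1.07 with CBR-5884, so that CBR-5884 library 2 lay between the DMSO libraries and library 4 below them.

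Other genes of H3K4 methylation were read from lists of subunits, further enzymes, partners and readers. Of 72 such genes 66 were tested, 0 were called, and 2 had an unadjusted limma p under 0.05, Paf1 and Ncoa6, both lower, where the share over all genes tested was 3.66%. Fold changes were positive for 32 and negative for 34, with a median of −0.00. The groups did not overlap for 15 of the 66, beside 31.3% of all genes tested, so neither count stood above the background. Paf1, a subunit of the polymerase-associated complex that promotes H2B ubiquitination ahead of H3K4 trimethylation, had 186 and 185 TPM with DMSO and 156 and 152 TPM with CBR-5884. These groups were well apart against the spread within each (log2 fold change −0.27, SE 0.07, interval −0.44 to −0.09; limma unadjusted p = 0.00930, adjusted p = 0.998). In that list of 10 genes the fold change was above 0 for 4 and below 0 for 6 (median −0.01), and its other 9 genes had an unadjusted p above 0.05. Ncoa6, a subunit particular to the Kmt2c and Kmt2d complexes, had 71.5 and 63.9 TPM with DMSO and 53.0 and 59.1 TPM with CBR-5884 (log2 fold change −0.27, interval −0.52 to −0.01; limma unadjusted p = 0.0424, adjusted p = 0.998). Without DMSO library 2 the unadjusted limma p of Ncoa6 was 0.192, and without CBR-5884 library 2 it was 0.201.

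Among 13 subunits that mark out single complexes, fold changes were above 0 for 3 and below 0 for 10 (median −0.06), and 0 were called. Cxxc1, which brings Setd1a and Setd1b to unmethylated CpG, had 174 and 191 TPM with DMSO and 192 and 180.1 TPM with CBR-5884, and overlapped. Kdm6a, an X-linked H3K27 demethylase of the Kmt2c and Kmt2d complexes, had 19.1 and 23.5 TPM against 18.4 and 19.0 TPM, a small gap between the groups (log2 fold change −0.17, interval −0.53 to 0.19).

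Of 7 further methyltransferases and relatives tested, fold changes were above 0 for 3 and below 0 for 4, and 0 were called. Not all of them are known to methylate H3K4. Setd7, a monomethyltransferase with many substrates besides histones, had 11.9 and 10.4 TPM with DMSO and 9.56 and 6.28 TPM with CBR-5884. Its fold change was the largest in absolute size of the pathway genes tested, with a wide interval (log2 −0.46, −1.03 to 0.10). Prdm9 had 13.0 and 15.1 TPM against 11.2 and 13.8 TPM, and overlapped. Kmt2e, a relative without known catalytic activity, showed the largest gap within a condition of the KMT2 genes, with 48.0 and 50.8 TPM against 37.0 and 62.4 TPM. Smyd2 had 58.0 and 65.4 TPM against 68.0 and 72.5 TPM, groups that did not overlap, with an interval of −0.05 to 0.43. Smyd3 had 50.9 and 48.3 TPM against 55.9 and 48.2 TPM. Smyd1, a muscle gene, had at most 1.003 TPM in any library and was not tested.

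The remaining demethylases were lower in level than the 3 described above. Kdm5c on the X chromosome had 22.5 and 17.3 TPM with DMSO and 23.6 and 21.4 TPM with CBR-5884, and its Y-linked copy Kdm5d had 15.3 and 13.1 TPM against 15.3 and 15.1 TPM. Kdm1b, known for H3K4 demethylation in oocytes, had 61.3 and 55.6 TPM against 56.0 and 56.6 TPM. Riox1, for which H3K4 demethylation has also been described, had 45.3 and 45.4 TPM against 48.4 and 43.1 TPM. In all 4 of these the groups overlapped.

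Of 11 tested partners of Kdm1a, fold changes were above 0 for 6 and below 0 for 5 (median 0.01), and 0 were called. Its deacetylase partner Hdac1 had 193 and 211 TPM with DMSO and 179 and 176 TPM with CBR-5884, groups that did not overlap (log2 fold change −0.19, interval −0.38 to 0.00). The value is uncertain, since 40.0% of its 31-base words occur in other genes, with Gm10093 sharing the most. Hdac2 had 258 and 255 TPM against 254 and 251 TPM (log2 fold change −0.02), and Zmym3 had 270.5 and 222 TPM against 247 and 229 TPM. Rcor3, a corepressor, was near 2 TPM, with 2.75 and 1.64 TPM against 2.39 and 2.69 TPM. Rcor1, the corepressor usually found with Kdm1a, had a mean of 6.97 TPM, while its relative Rcor2 had 109 TPM.

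Of 18 tested proteins that read H3K4 methylation, fold changes were above 0 for 12 and below 0 for 6 (median 0.02), and 0 were called. Zcwpw1, a meiotic reader of H3K4 and H3K36 trimethylation, had 223 and 212 TPM with DMSO and 221 and 232 TPM with CBR-5884, a level above that of every KMT2 methyltransferase. Phf13 had 281 and 253 TPM against 291 and 264 TPM. Ing2 had 34.8 and 29.9 TPM against 46.5 and 32.8 TPM, and Phf2 had 4.04 and 2.70 TPM against 3.53 and 4.17 TPM. The groups of these 4 genes overlapped.

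Of 9 genes that supply the methyl donor, fold changes were above 0 for 5 and below 0 for 4 (median 0.03), and 0 were called. The groups did not overlap for 5 of the 9, beside 31.3% of all genes tested, and the difference from that share was not tested. Mat2a and Shmt2 were higher in both CBR-5884 libraries, and Mtr, Shmt1 and Mat2b lower. Mat2a, which makes S-adenosylmethionine, had 77.2 and 73.7 TPM with DMSO and 82.3 and 82.6 TPM with CBR-5884 (log2 fold change 0.13, interval −0.07 to 0.32). Ahcy, which clears the product inhibitor S-adenosylhomocysteine, had 13.0 and 8.17 TPM against 14.1 and 9.26 TPM; 71.4% of its 31-base words occur in other genes, so its level is uncertain. Mtr, the methionine synthase, had 282 and 280.5 TPM against 261 and 273 TPM (log2 fold change −0.07). Shmt1 had 302 and 330.5 TPM against 299.98 and 296 TPM (log2 fold change −0.08). Shmt2 had 199.9 and 187 TPM against 209 and 229 TPM (log2 fold change 0.18, interval −0.02 to 0.38). Both serine hydroxymethyltransferases pass a carbon of serine to folate, Shmt1 in the cytosol and Shmt2 in mitochondria.

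**Figure D4:**
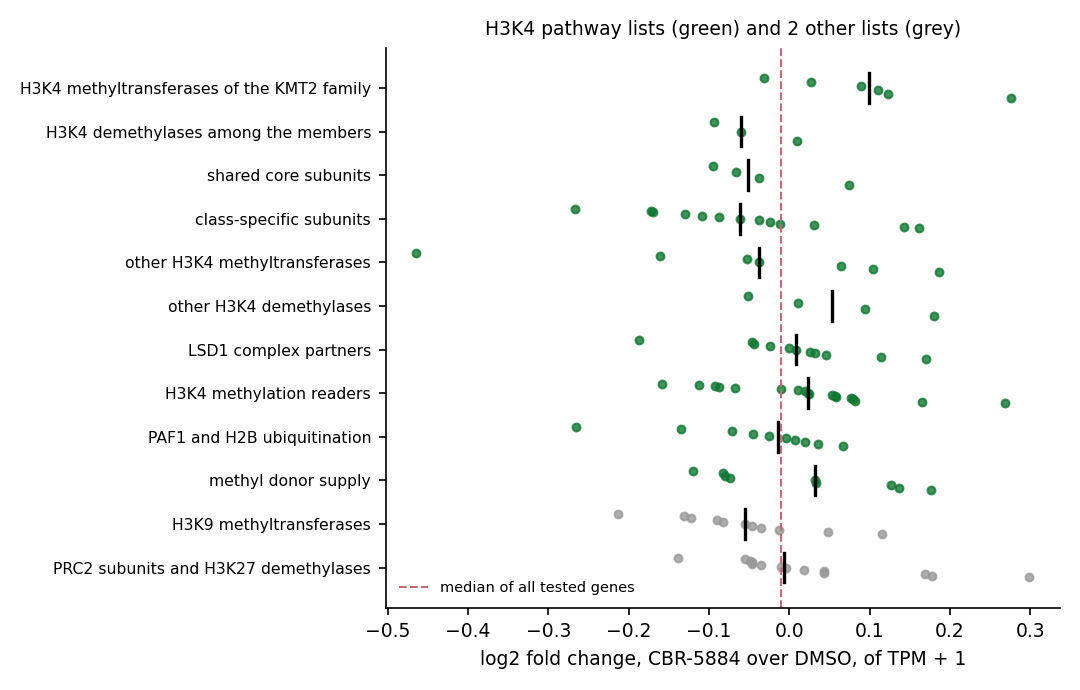
Log2 fold change of CBR-5884 over DMSO (log2 of TPM + 1) for each tested gene of the H3K4 lists (green) and of the lists of H3K9 methyltransferases and of PRC2 with the H3K27 demethylases (grey); black bars are list medians and the dashed line the median of all tested genes, −0.01. List medians run from −0.06 to 0.10, and Setd7 at −0.46 lies farthest from 0.

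Enzymes of 2 other histone marks were read in the same way. Of 11 genes of H3K9 methylation fold changes were above 0 for 2 and below 0 for 9 (median −0.06). Of 14 genes of PRC2 and H3K27 demethylation 6 were positive and 8 negative (median −0.01). In both lists 0 genes were called and 0 had an unadjusted limma p under 0.05. CBR-5884 library 4 was the highest library for 0 of the H3K9 genes and 4 of the PRC2 and H3K27 genes. The difference between these lists and the H3K4 members was not tested.

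The sorted cells held some RNA of other cells. In bulk RNA, fewer cells of a type and less RNA per cell cannot be told apart. The sums over 6 peritubular and stromal markers were 39.1 to 44.1 TPM with DMSO and 44.6 to 46.1 TPM with CBR-5884, over 5 Leydig cell markers 5.15 to 6.70 and 4.48 to 4.72 TPM, and over 6 endothelial and macrophage markers 13.5 to 13.6 and 11.7 to 19.8 TPM. The highest of the last was CBR-5884 library 4, which was also the highest for 4 of the 6 methyltransferases. In that library the macrophage markers were above the other 3 libraries, with Adgre1 at 4.12 against 0.725 to 1.38 TPM, Csf1r at 6.34 against 1.64 to 4.25 TPM and Ptprc at 1.197 against 0.406 to 0.493 TPM. Col1a1 was the largest part of the peritubular and stromal sum, with 21.2 and 24.1 TPM with DMSO and 24.3 and 29.1 TPM with CBR-5884. Of the 5 markers tested in that list, fold changes were above 0 for 4 and below 0 for 1, Acta2. Acta2 had 5.71 and 4.27 TPM with DMSO and 4.53 and 2.84 TPM with CBR-5884. The Leydig cell markers were low and did not divide the libraries in 1 way. Insl3 was at 0 in both libraries numbered 4, and at 0.515 and 0.589 TPM in those numbered 2 of DMSO and CBR-5884. Hsd3b1 was also lower in the libraries numbered 4. Cyp17a1 (1.28 TPM) and Cyp11a1 (0.846 TPM) were instead highest in DMSO library 4. Star had 3.02 and 3.23 TPM in DMSO and CBR-5884 libraries 4, against 3.58 and 2.35 TPM in libraries 2. The part of these cells in the values above was not tested.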

How the data were processed

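Libraries were built with a TruSeq kit from 100 ng of total RNA, isolated on RNeasy micro columns, per the labels' protocols. The submitters' processing notes name fastp, kallisto and mm10; the sources used here do not give tool versions, annotation or strand setting. The deposited table holds signal values, TPM and scaled reads per base, with 1 value per gene and library repeated for each transcript, per the file headers; 1 line per gene and library was kept. TPM summed to 966761 to 1002976 per library over 36088 genes. A gene's TPM is a sum over its transcripts, so isoforms cannot be separated. Because these are not counts, no count model was used. Relative depth was read from the value of 1 read in low genes with a single transcript, as the most common ratio to DMSO library 4. That ratio was shared by 59 of 1163 genes compared for DMSO library 2. For CBR-5884 libraries 2 and 4 it was shared by 66 of 1202 and 58 of 1156 genes. Absolute depth is unknown, and no counting interval is given.

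The two-sided limma-trend test (limma 3.58.1, R 4.3.3) was run on log2(TPM + 1) for 14920 genes with a mean of at least 1 TPM; the other 21168 were left out. All 4 libraries entered, with no covariate. Fold changes are on the log2(TPM + 1) scale and understate changes of low genes. With 2 against 2 libraries an exact permutation test cannot go below p = 0.333, so none was used. The p-values measure the spread between these libraries only. The members and gene lists were chosen with earlier results of these data known. Named are the 10 members, genes of each pathway list with an unadjusted p under 0.05 or, where a list had none, its 2 most abundant and 2 most changed genes, and 8 genes with a known germ line or complex role; Rcor1, Rcor2, Mat2a, Mat2b, Gm49388, Smyd1 and single cell type markers were named in addition, after their values were seen. Positions come from GENCODE M21 (GRCm38, also called mm10), 1-based; 116337 of the 117403 transcripts of the table were found there. Shared 31-base words were counted over those transcripts. There were 16 alternative settings, of which 2, both with a correction for transcript length, were chosen after seeing the data.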

Additional observations from a re-analysis of the deposited data

How the results depend on the processing

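Scaling, pseudocount, filter and variance model made little difference to the members: 0 were called in each of the 16 alternatives, and the fold changes of the 10 members, Paf1 and Ncoa6 kept their direction in the 12 that kept all libraries. Over all genes tested 1 gene, not a member, was called with scaled reads per base and 1 with robust variance estimates, against 0 by the test used in the report. Single libraries mattered more, and the fits without one have 1 library in a condition, which is assumed to vary like the others. The count of members at an unadjusted p under 0.05 was 0 to 2; the 2 were Kmt2a and Kmt2d when CBR-5884 library 2 was left out. The median fold change over members was −0.0138 to 0.0869. Groups did not overlap for 5 to 7 members, against 2 with all libraries, as 1 library against 2 leaves fewer values to overlap. Leaving out DMSO library 4 turned the direction of Kmt2b (0.102), Kdm1a (−0.0599) and Setd1b (−0.0732). Leaving out CBR-5884 library 2 turned Kmt2b (0.0833) and Kdm1a (−0.0192). Leaving out CBR-5884 library 4 turned Kmt2a (−0.0919), Setd1a (−0.0491) and Kdm5b (0.00857). Over these fits the range was −0.0919 to 0.312 for Kmt2a, −0.165 to 0.102 for Kmt2b, −0.0491 to 0.104 for Setd1a, −0.0732 to 0.252 for Setd1b, −0.0599 to 0.0778 for Kdm1a and −0.130 to 0.00857 for Kdm5b. Directions held for Kmt2c (0.0587 without CBR-5884 library 4 to 0.187 without CBR-5884 library 2), Kmt2d (0.0266 to 0.526, the same libraries), Wdr5 (−0.0169 without CBR-5884 library 4 to −0.115 without CBR-5884 library 2) and Kdm5a (−0.114 to −0.0728). The unadjusted p of Ncoa6 ranged from 0.0277 to 0.201 over all alternatives and lay above 0.05 also with equal library totals (0.0712) and no mean-variance trend (0.0978); that of Paf1 did so only in the last (0.0531). Libraries that share a number in their names deviated together (correlation of the differences 0.26 across 9538 genes, which are not independent), but nothing in the labels ties them. With that number as a replicate block the members' median was 0.02 and 0 were called, and 797 genes against 546 had an unadjusted p under 0.05, a count that was 1034 without DMSO library 2 and, with no filter on low values, 1079 of 26138 genes tested in place of 14920. With the block and the length correction together the median was 0.03. The number of libraries, with 2 residual degrees of freedom, limits every comparison; sequencing depth in reads is unknown.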
